A study of Rattus norvegicus with 2 samples.

Results

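Oligodendrocytes meet oxidants with a set of detoxifying and reducing enzymes, and 37 genes of that set are described here as they stood in rat cells with and without knockdown of the chaperone HSC70. The genes were selected by gene symbol from a list drawn up with earlier results of the same 2 libraries in view, so the values that chose them are the ones given here, and no difference below is a test. All 37 were among the 18049 gene rows of the series' table, and all 37 counted as measured, meaning that their mean reached 1 CPM (estimated counts scaled to a common library size by the TMM method). They fall into 5 arms: 9 glutathione genes, 9 thioredoxin genes, 5 genes of NADPH supply, 9 detoxification genes and 5 regulators.

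The cells were wild-type rat oligodendrocyte precursors (OPCs), isolated by immunopanning from the cortex of pups and labelled as oligodendrocytes of forebrain tissue. Cells of group siSCR received a scrambled small interfering RNA by electroporation, and cells of group siHsc70 one against Hsc70, the product of Hspa8. Both groups were in differentiation medium with 60 nM T3, the thyroid hormone, and the design text places them at day 2 of T3. The labels do not say how many pups or cultures went into a library. Each group had 1 library, with a total of 19085587 counts for siSCR and 18130768 for siHsc70, so no test between the groups was possible. Values in parentheses are 95% exact intervals for the reads counted. How far cultures of one group would differ is not in them, nor is the extra error that PCR duplicates bring.

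NRF2, encoded by Nfe2l2, is a transcription factor that KEAP1 holds in the cytoplasm and hands to a ubiquitin ligase. When electrophiles or oxidants modify KEAP1, or when p62 (Sqstm1) binds it, NRF2 accumulates, pairs with a small MAF protein and binds antioxidant response elements (AREs), sites that the repressor BACH1 also occupies. Its targets make glutathione, reduce thioredoxin, supply NADPH, the electron donor of both systems, and modify and export reactive compounds. Cells of the oligodendrocyte lineage are rich in iron and are known to be sensitive to oxidative damage.

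Most of the 37 genes were higher in siHsc70. By the rule of at least 1.5-fold on the log2(CPM + 1) scale, 21 were higher and 1 was lower, and 15 lay between these limits. Across the 13518 measured genes, the share at least 1.5-fold higher was 9.65% and the share at least 1.5-fold lower was 12%. All 37 had means above 10 CPM, and of the 10153 genes that reach that level 7.59% were higher by the rule. The 4 genes past 2-fold higher were Nqo1, Gpx1, Gss and Prdx6, and 0 were 2-fold lower, where 2.29% and 5.14% of measured genes were. The median difference of the 37 in log2(CPM + 1) was 0.68, against -0.0034 for all measured genes. Because the list was drawn up with these values known, its distance from the background is a description of the list and supports nothing further.

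Together the 37 genes took 1.02% (1.016 to 1.025) of the siSCR counts and 1.7% (1.69 to 1.701) of the siHsc70 counts. Without Gstp1, the member with the most counts, the shares were 0.899% (0.8944 to 0.9029) and 1.47% (1.463 to 1.475). The larger share in siHsc70 therefore did not rest on that gene alone.

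**Figure D1:**
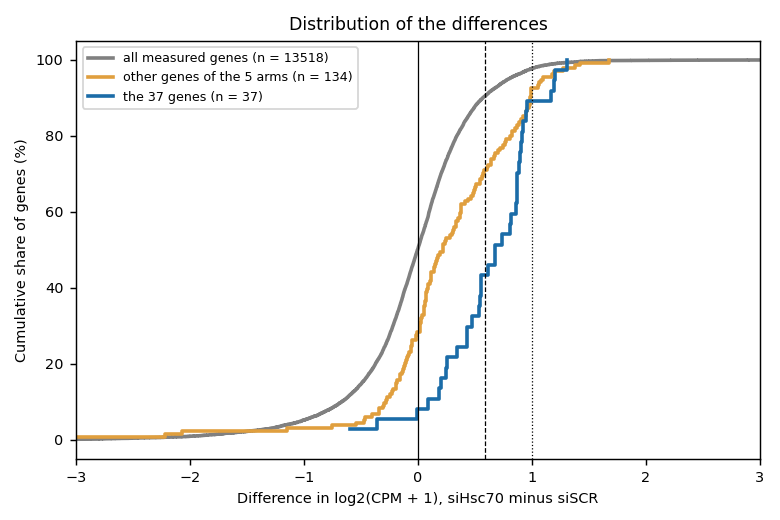
Cumulative share of genes (%) against the difference in log2(CPM + 1), siHsc70 minus siSCR, for all 13518 measured genes (grey), the 134 measured other genes of the 5 arms (orange) and the 37 genes (blue); the solid, dashed and dotted vertical lines mark 0, 1.5-fold and 2-fold. The blue curve lies to the right, with a median of 0.68, the orange one between, with a median of 0.22, and the grey one crosses its midpoint near 0.

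Levels were compared between genes only in TPM, the deposited values scaled for transcript length. Gstp1 was the most abundant of the 37, at 3524 TPM in siSCR and 6037 TPM in siHsc70, followed by Nqo1, at 1274 TPM in siSCR and 2858 TPM in siHsc70, and Sqstm1, at 1130 TPM in siSCR and 1776 TPM in siHsc70. Taldo1, Prdx1, Txn1, Prdx2 and Prdx6 came next, and Bach1 was the least abundant, at 12.2 TPM in siSCR and 7.08 TPM in siHsc70. The 5 most abundant transcripts thus came from 5 different arms, and the rarest from a transcriptional repressor and a mitochondrial reductase, Txnrd2. In TPM the whole distribution of genes was shifted: the median measured gene differed by -0.13 in log2(TPM + 1), where it differed by -0.0034 in log2(CPM + 1), so TPM values are used here for levels and CPM for differences.

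**Figure D2:**
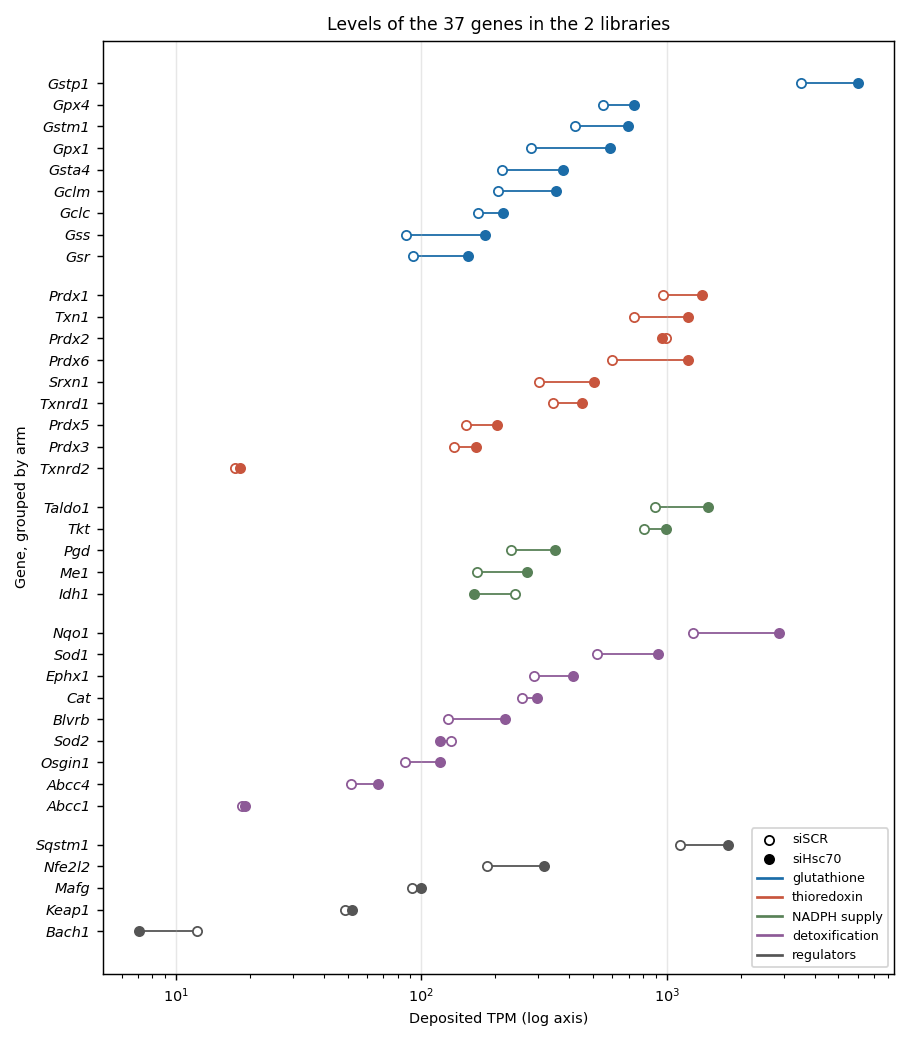
Deposited TPM (log axis) of each of the 37 genes in siSCR (open circles) and siHsc70 (filled circles), coloured by arm and ordered by mean TPM within an arm. Levels run from 7.08 TPM for Bach1 to 6037 TPM for Gstp1, and the filled circle lies to the right of the open one for all genes but Prdx2, Idh1, Sod2 and Bach1.

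The ARE core is usually written TGACNNNGC, and promoter windows from RefSeq (rat build GRCr8, 250 bases before to 50 bases after an annotated start) were searched for it on both strands. Windows were found by symbol for 35 of the 37 genes, and Gsr and Prdx6 had none in the table used. The core was in a window of 10 of the 35 genes (28.6%), and in 12.1% of all 33469 windows, which belong to 27457 genes, or in 15.3% of the 10645 measured genes with a window. The form TGACTCAGC, in which the core overlaps the AP-1 site TGACTCA, was in 4 of the 35, Gstp1, Me1, Prdx1 and Ephx1. It was in 0.415% of all windows, or in 0.46% of the measured genes with a window. TGACTCA by itself was in 6 of the 35, these 4 with Srxn1 and Bach1, and in 4.63% of all windows, or in 3.61% of those measured genes.

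Stretches of 100 bases around the core are printed because they show which letters those genes share; the 4 first-named carry TGACTCAGC on either strand, Gclm carries TGACTAAGC, and Idh1, which was lower in siHsc70, carries TGACCCTGC. Each is given 5′ to 3′ on the strand of its gene, from upstream of the start site only, with the core in capitals; where the core lies on the opposite strand the capitals show its reverse complement.
Gstp1 (chr1:210769713-210769812, minus strand): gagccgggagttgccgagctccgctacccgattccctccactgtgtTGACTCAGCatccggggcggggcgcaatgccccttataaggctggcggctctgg
Me1 (chr8:96540358-96540457, minus strand): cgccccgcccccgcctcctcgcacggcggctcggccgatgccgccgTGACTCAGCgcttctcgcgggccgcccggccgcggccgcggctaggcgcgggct
Prdx1 (chr5:135383725-135383824, plus strand): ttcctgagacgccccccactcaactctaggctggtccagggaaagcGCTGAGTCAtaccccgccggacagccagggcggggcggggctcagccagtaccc
Ephx1 (chr13:95263121-95263220, minus strand): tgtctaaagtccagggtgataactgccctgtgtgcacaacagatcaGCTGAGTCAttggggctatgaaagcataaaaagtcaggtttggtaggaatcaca
Gclm (chr2:213031917-213032016, plus strand): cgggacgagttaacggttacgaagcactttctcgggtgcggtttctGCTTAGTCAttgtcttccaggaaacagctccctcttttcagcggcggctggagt
Idh1 (chr9:74049504-74049603, minus strand): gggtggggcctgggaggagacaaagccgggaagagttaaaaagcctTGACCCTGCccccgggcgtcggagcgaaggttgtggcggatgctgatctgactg

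In Gstp1 the first base of the core was 61 bases before the annotated start, in Ephx1 57, in Idh1 83, in Prdx1 135, in Me1 167 and in Gclm 172. The Ephx1 window belongs to the downstream of its 2 annotated starts. Other cores were found in the windows of Txnrd1, TGACAAAGC at the downstream of 2 starts, of Sod2, TGACCCTGC, of Prdx5, TGACTCTGC across the start itself, and of Nfe2l2, TGACGCCGC after the start. Of the 10 genes with a core, 6 were at least 1.5-fold higher in siHsc70, and of the 25 without one, 13 were, shares of 60% and 52%. The order of these shares depended on the setting. With the deposited TPM, Prdx1 and Ephx1, which have a core, and Osgin1, which has none, did not pass. Over measured genes with a window, the shares at least 1.5-fold higher were 9.82% with the core and 8.98% without. A match describes letters, not binding, and sites further away, such as enhancers, were outside the windows.

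The regulators did not move as a block. Nfe2l2 was at 204 CPM with siSCR and 381 CPM with siHsc70, 1.87-fold higher (1.80 to 1.94). Sqstm1, whose product is the autophagy receptor p62, was at 1020 CPM with siSCR and 1784 CPM with siHsc70, 1.75-fold higher (1.72 to 1.78). These were the 2 regulators past 1.5-fold higher, and both are themselves known NRF2 targets.

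Keap1, the gene of the NRF2 inhibitor, was at 73.4 CPM with siSCR and 87.1 CPM with siHsc70, 1.19-fold higher (1.10 to 1.28). Mafg, encoding the small MAF partner, was at 252 CPM with siSCR and 301 CPM with siHsc70, 1.20-fold higher (1.15 to 1.24). In the differences of all measured genes, Keap1 and Mafg stood at percentiles 73.2 and 74.1, and Nfe2l2 at 96.4. Bach1 was the 1 member at least 1.5-fold lower, at 19.5 CPM with siSCR and 12.6 CPM with siHsc70, 1.56-fold lower (1.32 to 1.84). Its call depended on the setting: its difference was -0.598 and it no longer passed with upper-quartile scaling or with the deposited FPKM. By FPKM it was at 5.84 in siSCR and 3.69 in siHsc70, low values at which the added 1 understates the difference. The transcripts of activator and repressor thus shifted apart: there were 15.3 Nfe2l2 transcripts per Bach1 transcript in siSCR and 44.6 in siHsc70, by TPM. Per Keap1 transcript, the values for Nfe2l2 were 3.82 in siSCR and 6.04 in siHsc70.

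Among 25 other regulators in the table, 23 were measured, 2 (8.7%) passed 1.5-fold upward and 2 downward, and the median was 0.02. Across all measured genes 9.65% passed upward and 12% downward, so these counts are near the background. Trim16, reported to promote NRF2 activity, was at 13.9 and 28.6 CPM in siSCR and siHsc70, 2.06-fold higher (1.78 to 2.40), and the small MAF gene Maff, a stress-responsive relative of Mafg, was 1.59-fold higher (1.39 to 1.81). Nfe2l1, encoding the relative of NRF2 that drives proteasome genes, was at 216 CPM with siSCR and 275 CPM with siHsc70, 1.27-fold higher (1.22 to 1.33). Named after their values were seen, Bach2, the relative of Bach1, was at 9.51 and 3.73 CPM, and Cul3 and Rbx1, subunits of the ligase that KEAP1 serves, were at 179 and 188 CPM and 67.3 and 70.5 CPM. Cul3 and Rbx1 were therefore at similar levels in the libraries, while Nfe2l2 was higher. Other regulators of the list were not all level: Gsk3b, also named after its values were seen, was at 272 and 197 CPM, and Fbxw11 at 168 and 147 CPM. Of the 23 measured, 12 were above 0 in their difference and 11 below.

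Glutathione, a tripeptide that carries the cell's main pool of reduced thiol, is built by a ligase of a catalytic and a modifier subunit and finished by glutathione synthetase. All 9 glutathione genes were higher in siHsc70, 7 of them by at least 1.5-fold, and the arm had the highest median of the 5, 0.92. Gclc, the catalytic subunit gene, was at 243 CPM with siSCR and 338 CPM with siHsc70, 1.39-fold higher (1.34 to 1.45), the smallest ratio of the arm. Gclm, the modifier subunit gene, was at 140.1 CPM with siSCR and 267 CPM with siHsc70, 1.91-fold higher (1.82 to 2.00). Gss, encoding the synthetase, was at 75.7 CPM with siSCR and 174 CPM with siHsc70, 2.30-fold higher (2.16 to 2.45). The 3 synthesis genes therefore differed among themselves by more than counting error: the ratio of Gclm was 1.37 (1.29 to 1.45) times that of Gclc, and the ratio of Gss was 1.65 (1.53 to 1.78) times that of Gclc. By TPM there were 1.20 in siSCR and 1.65 in siHsc70 modifier transcripts for each catalytic one.

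Gsr encodes the reductase that returns oxidised glutathione to its reduced form with NADPH. It was at 79.6 CPM with siSCR and 146 CPM with siHsc70, 1.84-fold higher (1.73 to 1.96). Gpx1, the cytosolic peroxidase that uses glutathione to remove hydrogen peroxide, was at 111 CPM with siSCR and 257 CPM with siHsc70, 2.31-fold higher (2.19 to 2.43), the largest ratio of the arm. Gpx4, which reduces lipid hydroperoxides in membranes and restrains ferroptosis, was at 218 CPM with siSCR and 320.4 CPM with siHsc70, 1.47-fold higher (1.41 to 1.53), just under the 1.5-fold rule. Both peroxidases are selenoproteins, and the ratio of Gpx1 was 1.57 (1.47 to 1.68) times that of Gpx4.

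The transferases, which join glutathione to electrophiles, were higher to a similar degree. Gstp1 was at 1209 CPM with siSCR and 2283 CPM with siHsc70, 1.89-fold higher (1.86 to 1.92). Gsta4, whose product prefers the lipid aldehyde 4-hydroxynonenal, was at 76.1 CPM with siSCR and 148 CPM with siHsc70, 1.95-fold higher (1.82 to 2.07). Gstm1 was at 199.9 CPM with siSCR and 366 CPM with siHsc70, 1.83-fold higher (1.76 to 1.90). The intervals of Gstp1 and Gsta4 overlapped, and those of Gstp1 and Gstm1 did too.

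The estimated counts of these 3 genes were not whole numbers to within 0.001, as is the case for 8 of the 37. Estimated counts that are not whole can come from reads divided between rows, and the sources used here do not say how these were made. Summed over its 7 rows, the Gstm family was at 272 CPM with siSCR and 478 CPM with siHsc70, a ratio of 1.76 (1.70 to 1.82). The 7 Gsta rows summed to 104 and 163 CPM, a ratio of 1.57 (1.48 to 1.66), below that of Gsta4 alone. The row of Gsta1, named after its values were seen, went the other way, with 168 counts in siSCR and 0 in siHsc70. In siHsc70 3 counts correspond to 0.167 CPM, and the siSCR value of Gsta1 was 52.3-fold above that floor. The exact interval of its ratio, which also counts the error of the siSCR value, begins at 42.1-fold lower. The Gsta genes include close relatives, and the division of reads between Gsta1 and other rows is uncertain.

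Of 37 other glutathione genes, 34 were measured, 10 passed 1.5-fold upward and 1, Gsta1, downward, and the median was 0.34. Slc7a11, the cystine carrier that supplies the cysteine of glutathione and a known NRF2 and ATF4 target, was at 677 CPM with siSCR and 1528 CPM with siHsc70, 2.26-fold higher (2.21 to 2.30). Its partner chain Slc3a2, named after its values were seen, was at 788 and 1261 CPM. Cystine import, synthesis and recycling were thus all represented among the higher genes. Gpx7 and Gpx8, peroxidases of the endoplasmic reticulum, were 2.24-fold higher (1.91 to 2.64) and 1.91-fold higher (1.78 to 2.05). The theta-class transferases Gstt2 and Gstt3 were 1.83-fold higher (1.64 to 2.05) and 2.17-fold higher (1.85 to 2.54). The mu-class Gstm7 was 1.83-fold higher (1.52 to 2.21).

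**Figure D3:**
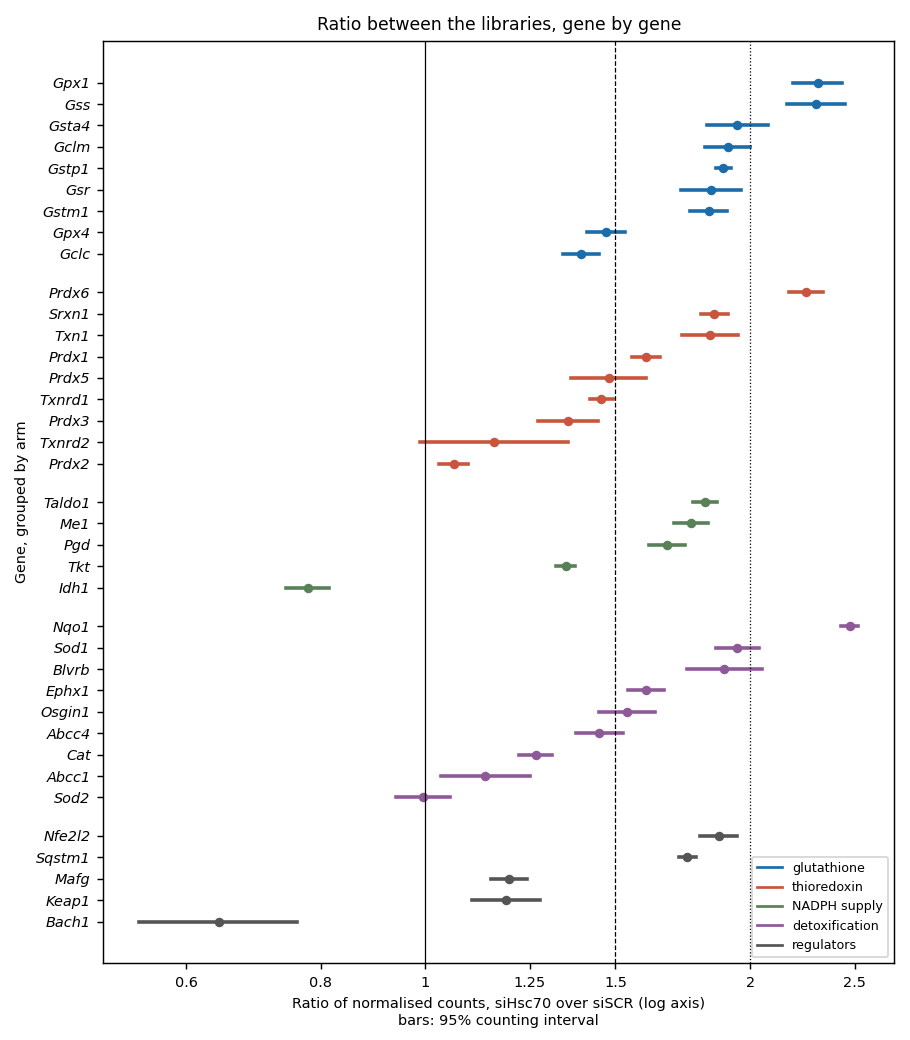
Ratio of normalised counts, siHsc70 over siSCR (log axis), for each gene with its 95% counting interval, grouped and coloured by arm; the solid, dashed and dotted lines mark ratios of 1, 1.5 and 2. Ratios run from 0.643 for Bach1 to 2.47 for Nqo1, and the intervals of Sod2 and Txnrd2 cross 1.

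Thioredoxin is a small protein that reduces disulfides, and thioredoxin reductase, a selenoprotein, recharges it with NADPH. Peroxiredoxins use thioredoxin to remove peroxides, and sulfiredoxin rescues peroxiredoxins that have been oxidised too far. All 9 genes of the arm were above 0 in their difference, 4 of them past 1.5-fold, and the median was 0.56. Txn1, cytosolic thioredoxin, was at 90.1 CPM with siSCR and 165 CPM with siHsc70, 1.84-fold higher (1.73 to 1.95). Txnrd1, its reductase, was at 553 CPM with siSCR and 805 CPM with siHsc70, 1.46-fold higher (1.42 to 1.49). Srxn1, sulfiredoxin, was at 405 CPM with siSCR and 751 CPM with siHsc70, 1.85-fold higher (1.80 to 1.91). Thioredoxin and sulfiredoxin thus passed the 1.5-fold rule, and the reductase was just short of it.

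Of the 5 peroxiredoxin genes, Prdx6 had the largest ratio. Its product, a peroxiredoxin with a single active cysteine that works with glutathione and also has phospholipase activity, had its gene at 231 CPM with siSCR and 519 CPM with siHsc70, 2.25-fold higher (2.17 to 2.33). Prdx1, the cytosolic form known as an NRF2 target, was at 383 CPM with siSCR and 613 CPM with siHsc70, 1.60-fold higher (1.55 to 1.65). Prdx2, its close cytosolic relative, was at 402 CPM with siSCR and 427 CPM with siHsc70, 1.06-fold higher (1.03 to 1.10), and its direction was not stable, since its difference was -0.053 with the deposited TPM. The ratio of Prdx1 was 1.51 (1.44 to 1.57) times that of Prdx2, and by TPM the balance of Prdx1 to Prdx2 was 0.974 in siSCR and 1.47 in siHsc70. Cytosolic peroxiredoxin transcripts were therefore at near parity in siSCR and tilted to Prdx1 in siHsc70.

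The 4 genes of the system with mitochondrial products named next had ratios below 1.5. Prdx3, the matrix peroxiredoxin, was at 88.8 CPM with siSCR and 120.3 CPM with siHsc70, 1.35-fold higher (1.27 to 1.44), and Prdx5, found in mitochondria, peroxisomes and cytosol, was at 55.6 CPM with siSCR and 82.2 CPM with siHsc70, 1.48-fold higher (1.37 to 1.60). Txnrd2, the mitochondrial reductase, was at 15.9 CPM with siSCR and 18.4 CPM with siHsc70, a ratio of 1.16 (0.988 to 1.36) whose interval includes 1. Mitochondrial thioredoxin, Txn2, named after its values were seen, was at 82.9 CPM with siSCR and 98.4 CPM with siHsc70, 1.19-fold higher (1.11 to 1.27). In these 3 pairs of the thioredoxin system the cytosolic gene had the larger ratio: by 1.55 (1.41 to 1.69) times for Txn1 over Txn2, 1.26 (1.07 to 1.48) times for Txnrd1 over Txnrd2 and 1.18 (1.10 to 1.27) times for Prdx1 over Prdx3. The other cytosolic form, Prdx2, went the other way, with a ratio 0.784 (0.730 to 0.842) times that of Prdx3. Of pairs of genes, 19 were compared in all, chosen after the values were seen, and these intervals cover counting error only.

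Of 20 other thioredoxin genes, all measured, 1 passed 1.5-fold upward and 0 downward, and the median was 0.13. It was Txndc17, encoding a thioredoxin-like protein, at 41.9 CPM with siSCR and 64.2 CPM with siHsc70, 1.53-fold higher (1.40 to 1.68). Txnip, encoding an inhibitor of thioredoxin that is strongly glucose-responsive, was at 11.5 CPM with siSCR and 11.7 CPM with siHsc70, a ratio of 1.02 (0.838 to 1.23). That 1 gene is 5.00% of the list, beside 9.65% of all measured genes, and a list of 20 is too short to tell these shares apart.

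Selenoproteins were examined as a group because Gpx1, Gpx4, Txnrd1 and Txnrd2 need selenocysteine. Listed were 19 further genes of selenoproteins and of the handling of selenium and selenocysteine. Of these, 0 passed 1.5-fold upward and 1 downward, and the median was -0.18. Of all measured genes 9.65% passed upward and 12% downward, so counts of 0 and 1 among 19 are not far from the background. Some selenoprotein genes, such as Selenow and Gpx3, were counted with the other genes of the arms instead. The lower one was Selenoi, encoding an ethanolamine phosphotransferase of phospholipid synthesis, at 74.3 CPM with siSCR and 34.3 CPM with siHsc70, 2.16-fold lower (1.97 to 2.38). Named after their values were seen, Sephs2 and Sepsecs, which make selenophosphate and selenocysteinyl-tRNA, were at 58.2 and 40.4 CPM and 34.0 and 22.7 CPM. None of these 19 genes was 1.5-fold higher, and a list this short is not set apart from the background by that count.

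NADPH is made in the cytosol by the oxidative pentose phosphate pathway, by malic enzyme and by isocitrate dehydrogenase. Of the 5 genes of this arm, 3 passed 1.5-fold upward and 0 downward, and the median was 0.74. Pgd, encoding the second NADPH-producing enzyme of the pentose phosphate pathway, was at 228 CPM with siSCR and 382 CPM with siHsc70, 1.67-fold higher (1.61 to 1.74). Taldo1 and Tkt, the transaldolase and transketolase of its non-oxidative branch, were at 489 and 888 CPM and at 801 and 1081 CPM in siSCR and siHsc70. Taldo1 was 1.81-fold higher (1.77 to 1.86) and Tkt 1.35-fold higher (1.32 to 1.38), so both were higher but Taldo1 more so, by 1.35 (1.30 to 1.39) times.

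Me1, cytosolic malic enzyme, was at 243 CPM with siSCR and 427 CPM with siHsc70, 1.76-fold higher (1.70 to 1.83). Idh1, the cytosolic and peroxisomal isocitrate dehydrogenase, was at 221 CPM with siSCR and 172 CPM with siHsc70, 1.29-fold lower (1.23 to 1.35), and it was below 0 in every setting run. The routes to cytosolic NADPH therefore differed in direction, and by TPM there were 0.696 in siSCR and 1.63 in siHsc70 Me1 transcripts per Idh1 transcript. Idh2, the mitochondrial enzyme, was at 81.1 CPM with siSCR and 125 CPM with siHsc70, 1.54-fold higher (1.44 to 1.64), so that the ratio of Idh1 was 0.506 (0.467 to 0.548) times that of Idh2. Here the mitochondrial gene had the larger ratio, as Prdx3 did beside Prdx2.

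Among 20 other NADPH genes, 3 (15%) passed 1.5-fold upward and 2 downward, and the median was 0.04. Of all measured genes 9.65% passed upward and 12% downward, so these counts are near the background. Rpe and Rpia, which interconvert the pentose phosphates that Taldo1 and Tkt use, were named after their values were seen and were at 42.7 and 37.1 CPM and 27.0 and 33.5 CPM. Me3, a mitochondrial malic enzyme, and Sirt2, a deacetylase abundant in myelinating cells, were 5.00-fold lower (3.87 to 6.54) and 4.68-fold lower (4.55 to 4.81). Sirt2 was at 1638 and 350.3 CPM, and its product is also a protein of the myelin sheath. Aldh1l1, a folate enzyme that yields NADPH and an astrocyte marker, was 1.61-fold higher (1.42 to 1.84).

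The detoxification arm held the largest ratio of the 37. Nqo1, the quinone reductase that is the usual reporter of NRF2 activity, was at 854 CPM with siSCR and 2112 CPM with siHsc70, 2.47-fold higher (2.43 to 2.52), at percentile 99.3 of all measured genes. Blvrb, a biliverdin and flavin reductase, was at 50.4 CPM with siSCR and 95.3 CPM with siHsc70, 1.89-fold higher (1.75 to 2.05). Ephx1, microsomal epoxide hydrolase, was at 230.2 CPM with siSCR and 368 CPM with siHsc70, 1.60-fold higher (1.54 to 1.66). Each of these acts on a reactive or pigmented small molecule, and each was past 1.5-fold.

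Osgin1, a stress-induced gene named for growth inhibition, was at 95.4 CPM with siSCR and 147 CPM with siHsc70, 1.54-fold higher (1.45 to 1.63). The exporters Abcc4 and Abcc1, which carry conjugates out of the cell, did not pass the rule. Abcc4 was at 138 and 200.4 CPM in siSCR and siHsc70, 1.45-fold higher (1.38 to 1.52), and Abcc1 was at 43.6 and 49.5 CPM, 1.14-fold higher (1.03 to 1.25). A relative outside the 37, Abcc3, named after its values were seen, was at 5.41 and 11.3 CPM, 2.10-fold higher (1.65 to 2.68). With its pseudogene row added, Abcc1 had a ratio of 1.15 (1.07 to 1.25).

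Superoxide dismutases turn superoxide into hydrogen peroxide, which catalase splits in peroxisomes. Sod1, the copper and zinc enzyme of the cytosol, was at 149 CPM with siSCR and 290.4 CPM with siHsc70, 1.94-fold higher (1.86 to 2.04). Sod2, the manganese enzyme of mitochondria, was at 126 CPM with siSCR and 126 CPM with siHsc70, a ratio of 0.995 (0.939 to 1.05). Cat was at 306 CPM with siSCR and 387 CPM with siHsc70, 1.27-fold higher (1.22 to 1.31). The ratio of Sod1 was 1.96 (1.82 to 2.10) times that of Sod2. This was the widest gap among the compared cytosolic and mitochondrial pairs in which the cytosolic gene had the larger ratio. Cytosolic Me1, 1.76-fold higher, and mitochondrial Me3, 5.00-fold lower, were not compared as a pair. The direction of Sod2 was not stable: its difference ran from -0.15 with the deposited TPM to 0.054 with upper-quartile scaling.

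Over the arm, 5 of 9 genes passed 1.5-fold upward, the median was 0.62, and the other detoxification genes had a higher one. Of 42, 37 were measured, 23 passed 1.5-fold upward and 0 downward, and the median was 0.82. Ptgr1, a reductase of lipid enals, was at 21.4 CPM with siSCR and 70.6 CPM with siHsc70, 3.30-fold higher (2.95 to 3.70), and Akr1b8, an aldo-keto reductase, was at 108 CPM with siSCR and 291 CPM with siHsc70, 2.70-fold higher (2.57 to 2.84). Hmox1, which breaks down heme and is a classical target of NRF2 and of BACH1 repression, was at 2005 CPM with siSCR and 4247 CPM with siHsc70, 2.12-fold higher (2.09 to 2.14). The glucuronosyltransferase gene Ugt1a6 and Sod3, the extracellular dismutase, were 2.44-fold higher (2.26 to 2.65) and 2.32-fold higher (2.12 to 2.53). The metallothionein Mt1, also metal- and glucocorticoid-responsive, was 2.61-fold higher (2.51 to 2.71). The ferritin chains Fth1 and Ftl1, which store iron, were 1.99-fold higher (1.97 to 2.01) and 1.63-fold higher (1.61 to 1.65), from levels of 3944 and 2574 CPM in siSCR. Akr1b8 and Akr1b10 are close relatives, as are the Ugt1a forms, which share exons, so single rows of these families are uncertain.

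**Figure D4:**
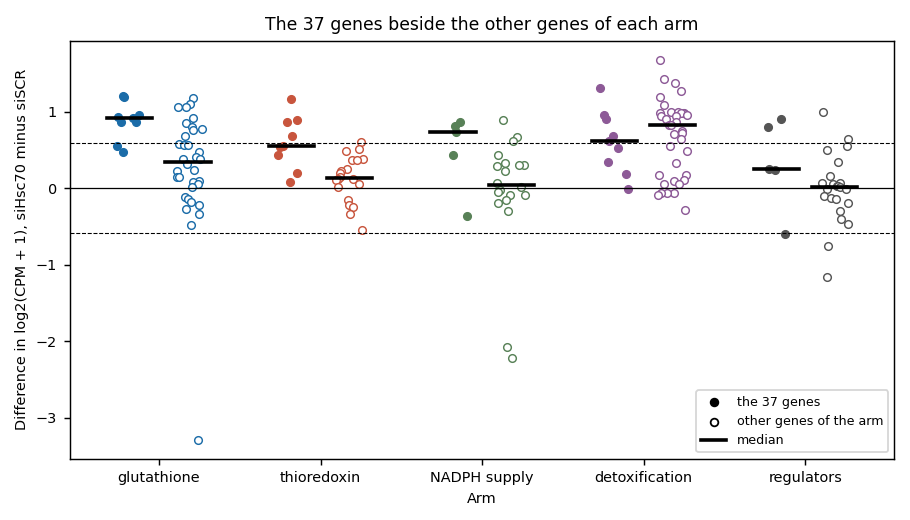
Difference in log2(CPM + 1), siHsc70 minus siSCR, for the selected genes (filled) and the other measured genes (open) of each arm; black bars are medians and dashed lines mark 1.5-fold either way. The selected genes have the higher median in the glutathione, thioredoxin, NADPH and regulator arms, and in detoxification the other genes do, at 0.82 against 0.62.

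Several other things differed between the same 2 libraries, and their part in these results was not tested. The targeted Hspa8 was at 1399 and 507 CPM in siSCR and siHsc70, 2.76-fold lower (2.69 to 2.83). Of 12 heat shock genes listed, 10 were at least 1.5-fold higher, beside 9.65% of all measured genes, and the 1 lower was Hspa8 itself. Of 13 oligodendrocyte markers 11 passed 1.5-fold downward and 0 upward, and they summed to 10678 CPM with siSCR and 3320 CPM with siHsc70, with Sox10 at 563 and 98.9 CPM and Mbp at 1968 and 414 CPM. In a bulk sample, fewer cells of a type and less RNA per cell cannot be told apart. Of 7 OPC markers 6 passed 1.5-fold downward and 0 upward, with a median of -1.92. They summed to 3510 CPM with siSCR and 2018 CPM with siHsc70, and without Ptprz1, at 2059 and 1630 CPM, to 1451 CPM with siSCR and 388 CPM with siHsc70.

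Of 12 astrocyte markers, 11 were measured, 4 passed 1.5-fold upward and 2 downward, and they summed to 4081 CPM with siSCR and 3715 CPM with siHsc70. Gfap was at 1416 and 667 CPM and Clu at 73.5 and 181 CPM, 8 of the 11 were above 0, and without Gfap the sum was 2665 CPM with siSCR and 3047 CPM with siHsc70. Of 10 fibroblast and mural markers, 6 were measured and 5 passed 1.5-fold upward, for a sum of 76.1 CPM with siSCR and 182 CPM with siHsc70. Of 14 microglial markers 3 were measured and 1 was at least 1.5-fold higher. The other 7 in the table had at most 15 counts in siSCR and 5 in siHsc70: Aif1, C1qc and Tyrobp were at 0 and 1 count, Trem2 at 1 and 1, Ptprc at 4 and 2, Csf1r at 8 and 2, and P2ry12 at 15 and 5. The 12 neuronal markers summed to 437 CPM with siSCR and 355 CPM with siHsc70, with 3 at least 1.5-fold higher and 6 lower, and the 8 endothelial markers in the table to 13.2 CPM with siSCR and 12.2 CPM with siHsc70, with 2 higher and 1 lower of 4 measured.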

How the data were processed

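RNA-seq of 2 samples was analysed, 1 library for siSCR and 1 for siHsc70, from 1 table for both, whose column names give the siRNA. Per the file headers, the authors deposited read counts, FPKM and TPM per gene. The estimated counts are not all whole and are not normalised, the deposited FPKM are scaled for length and depth, and the deposited TPM are scaled for length to a fixed library sum. For the aligner, counter, annotation and strand, the sources used here give nothing, and without strand, antisense reads cannot be separated. The submitters' processing notes name the build mm39, a mouse build, while the gene IDs are rat: 16783 of 18049 were found in RefSeq (GRCr8), all 37 described genes with the same symbol. Coordinates given come from RefSeq alone.

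Estimated counts were rounded and scaled to CPM with TMM factors (edgeR 4.0.16, R 4.3.3), 1.01 for siSCR and 0.992 for siHsc70. Differences are log2(CPM + 1), siHsc70 minus siSCR, which understates the change of low genes. Ratios are of normalised counts, with 95% Clopper-Pearson intervals, and ratios of 2 genes' ratios carry exact conditional intervals (SciPy 1.17.1). A count of 3 is 0.156 CPM in siSCR and 0.167 CPM in siHsc70. The procedure was checked on simulated whole counts with 200 changed genes and counting error alone. That check covers neither the spread between cultures nor reads divided between rows.

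The members, arms and gene lists were chosen with earlier results of these data known. All members are named. Other genes are named with a mean of at least 10 CPM and a ratio of at least 1.5-fold, at most 6 per list, with Slc7a11, Hmox1, Txnip, Nfe2l1, Fth1, Ftl1, Hspa8, Sox10, Mbp and Gfap in any case; some values that these rules cover are not reported here. The 9 alternatives tried were a pseudocount of 0.1, a minimum mean of 5 CPM or none, 3 further scalings including DESeq2 1.42.0, TPM, FPKM, and pseudogene rows added.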

Additional observations from a re-analysis of the deposited data

How the results depend on the processing

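Over the 9 alternatives, 33 of the 37 genes stayed above 0 and 2, Idh1 and Bach1, below it, and 2, Prdx2 and Sod2, changed sign. The genes at least 1.5-fold higher in every setting were 18 of the 21. Prdx1, Ephx1 and Osgin1 did not pass with the deposited TPM, and Osgin1 also did not with the deposited FPKM. With upper-quartile scaling 25 members passed, among them Gpx4, Txnrd1, Prdx5 and Abcc4, which were short of the rule in the main setting. With upper-quartile scaling and with the deposited FPKM the members at least 1.5-fold lower were 0, against 1. Upper-quartile scaling moved the median of all members to 0.74, of thioredoxin members to 0.62, of NADPH members to 0.80 and of regulators to 0.32. With the deposited TPM, where the median measured gene was -0.13, these medians were 0.54, 0.42, 0.60 and 0.12, and those of glutathione and detoxification members 0.78 and 0.47. The other detoxification genes were at 0.62 with TPM and 0.69 with FPKM, and the other regulators at -0.13 with TPM. Of all measured genes 310 were at least 2-fold higher, but 518 at a pseudocount of 0.1 and 203 by the deposited FPKM. The cause of these shifts was not tested. No paired analysis was possible because each group has 1 library, and for the same reason the spread between cultures is unknown. Depth limited Bach1 and Txnrd2 most, with the widest intervals of the ratio for their size, 0.643 (0.543 to 0.760) and 1.16 (0.988 to 1.36).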
